A study of Homo sapiens with 8 samples.

Results

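miR-21 is 1 hairpin with a mature miRNA on each arm, and both arms, miR-21-5p and miR-21-3p, were followed on 8 single-colour miRNA arrays of INA-6 cells, an established human multiple myeloma (MM) line that grows with IL-6. Its members were the 2 features of the scanner output named hsa-miR-21-5p and hsa-miR-21-3p, of the 2549 human miRNAs on each array. The control group was 4 cultures given DMSO, the solvent, and the treated group was 4 cultures given 1 μM of UNC1999, a small-molecule inhibitor of the histone methyltransferase EZH2. Both groups were harvested at 120 h, that is after 5 days, medium and reagents were renewed at 72 h, and IL-6 was in the medium of both. The treatment protocol in the labels names UNC2400, the inactive analog, for the controls, whereas the titles and the methods name DMSO, and the samples were taken as DMSO controls. The model is 1 cell line at 1 dose and 1 time, so the arrays carry no information on other MM lines or on earlier times.

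MicroRNAs are cut from a hairpin transcript in the nucleus and the cytoplasm, and 1 strand of the resulting duplex, the guide, is loaded into Argonaute, which it leads to mRNAs that pair with its seed, bases 2 to 8. The 5p arm of miR-21 is the guide in most tissues, and the 3p arm is the passenger strand, formerly written with a star. In MM, IL-6 from the marrow stroma signals through JAK kinases to STAT3, which binds upstream of the MIR21 gene and raises its transcription, and miR-21-5p represses mRNAs such as PDCD4. EZH2 places the repressive mark H3K27me3 on chromatin. The comparison asked which signal either arm had after EZH2 was inhibited in cells that were still given IL-6.

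The seed decides which mRNAs a miRNA can pair with, so the mature sequence of miR-21-5p is given here beside that of miR-590-5p, the other miRNA of the array with the same bases 2 to 8, and the hairpin shows where the 5p arm lies. Sequences are those of RefSeq for build GRCh38.p14, written 5′ to 3′. In the mature miRNAs capitals mark the seed, and in the hairpin they mark miR-21-5p, bases 8 to 29 of 72.
hsa-miR-21-5p: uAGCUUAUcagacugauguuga
hsa-miR-590-5p: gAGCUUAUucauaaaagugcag
MIR21 hairpin: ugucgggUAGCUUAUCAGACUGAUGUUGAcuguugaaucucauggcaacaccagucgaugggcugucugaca

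MIR21 lies on the plus strand at chr17:59841266-59841337, inside the span of the protein-coding gene VMP1, with miR-21-5p at chr17:59841273-59841294. miR-590-5p lies on the plus strand at chr7:74191213-74191234, inside the span of EIF4H. Of the 2549 human miRNAs on the array, 2248 had a sequence in the table, and these 2 were the only ones among them with the seed. The 2 mature miRNAs have the same base at 8 of 22 positions, but at 1 of the 14 positions from base 9 on, so they share the seed and little else.

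The arrays lay on 1 slide, and 369 to 484 miRNAs were detected on a DMSO array and 474 to 500 on a UNC1999 array. Signals were sums over the probes of a miRNA, divided by the array's 75th percentile among the 346 miRNAs seen on every array, and are given as log2 scaled signals. Replicates 2 and 3 of DMSO had the fewest detected miRNAs. Arrays fell into alike pairs within each group, DMSO 1 with 4, DMSO 2 with 3, UNC1999 1 with 3 and UNC1999 2 with 4, with Pearson correlations of 0.996 to 0.998 across miRNAs, against 0.985 to 0.992 for the other pairs of 1 group. The pairs were taken from the second principal component of these same data, so the correlations only describe them. What the alike pairs share is not in the labels. The 3 blood cell miRNAs miR-142-3p, miR-142-5p and miR-150-5p were detected on 8 of 8 arrays, miR-155-5p on 2 and miR-146a-5p on 0, and the 10 markers of liver, neurons, muscle, stroma, epithelium, red cells and endothelium were detected on 0 of 8.

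miR-21-5p, the guide strand, was among the brightest miRNAs of these cells on every array, and its scaled signal did not differ beyond the replicate spread. The log2 scaled signal was 11.98, 11.62, 11.51 and 11.96 on the DMSO arrays of replicates 1 to 4. It was 11.95, 11.59, 11.74 and 11.75 on the UNC1999 arrays. All 4 UNC1999 values lay within the range of the DMSO values. The means were 11.77 ± 0.24 (SD, n = 4) and 11.76 ± 0.15 (SD, n = 4), a log2 fold change of -0.01 with a standard error of 0.13 and a 95% interval from -0.31 to 0.29 (limma, Benjamini-Hochberg adjusted p = 0.944). The exact two-sided permutation test of the 8 arrays, whose smallest p is 0.029, gave p = 0.886. The interval reaches just past a 1.2-fold change, 0.26 on the log2 scale, in either direction, so a change of that size is not excluded.

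**Figure D1:**
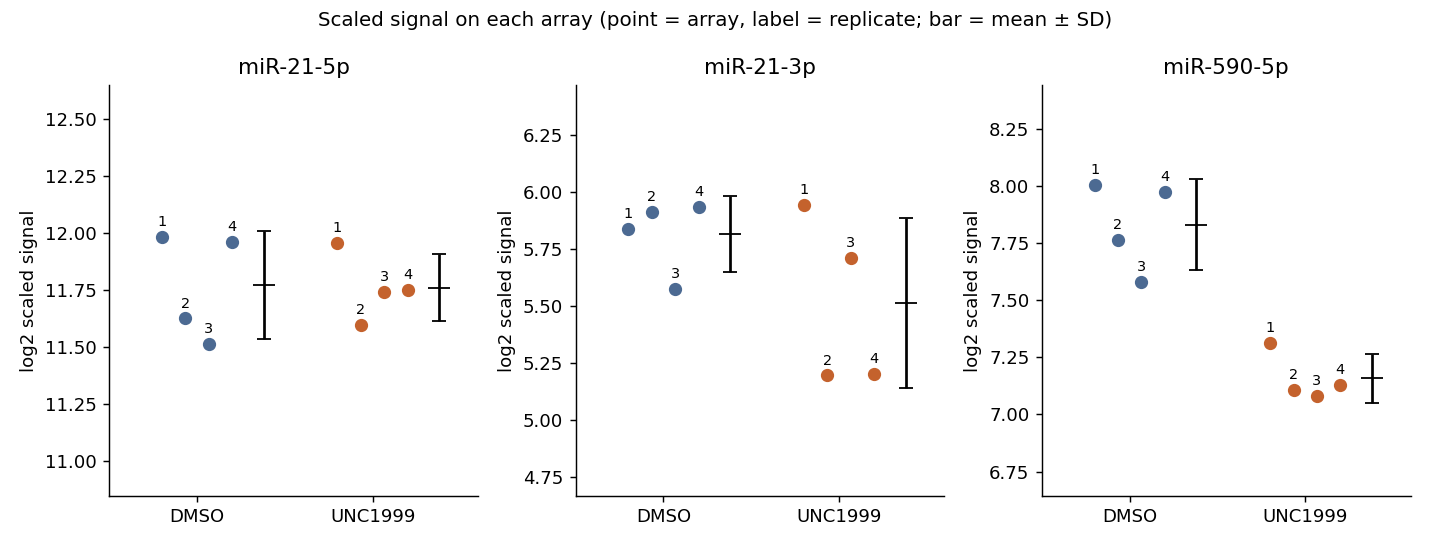
Log2 scaled signal of miR-21-5p, miR-21-3p and miR-590-5p on each of the 8 arrays, 4 after DMSO and 4 after UNC1999. Points are arrays with their replicate number, bars give mean ± SD, and the 3 vertical axes span the same range of log2 units: the groups overlap for both miR-21 arms and lie apart for miR-590-5p with this scaling.

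With the 8 arrays taken as independent, most of the miRNAs tested did differ between the groups. Of 456 miRNAs tested, 322 passed an adjusted p of 0.05 together with a 1.2-fold change and are written as called, which is 70.6%, with 164 higher (36.0%) and 158 lower (34.6%) after UNC1999, and of the 2 arms of miR-21 0 were called. With alike arrays averaged to 1 sample, 156 of the 456 were called, a minority, with 70 higher and 86 lower. Of the 346 miRNAs detected on all 8 arrays, 108 were called higher and 138 lower, with a median log2 fold change of -0.14, so the even split over all tested includes miRNAs that passed the detection filter through 1 group. Only 2 of the 456 had a smaller log2 fold change in size than miR-21-5p, and 120 had a smaller one than miR-21-3p. Among the 50 brightest miRNAs, 43 were called, 21 higher and 22 lower, and none had a smaller change than miR-21-5p. The median of all tested log2 fold changes was 0.01, and the median of their sizes was 0.51, all with this scaling.

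A rank needs no scaling between arrays, since it orders the miRNAs of 1 array by signal, but it orders signals and not molecules, because probes differ in brightness. miR-21-5p ranked 22, 25, 25 and 22 of 2549 on the DMSO arrays. It ranked 22, 23, 24 and 19 on the UNC1999 arrays. The mean rank was 23.5 ± 1.73 for DMSO and 22.0 ± 2.16 for UNC1999 (SD, n = 4 each; exact permutation test, two-sided, p = 0.457). The lowest and highest rank over the 8 arrays lay 6 places apart, against a median of 14 places for the 50 brightest miRNAs, of which 10 had a narrower span.

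By mean rank, the 3 miRNAs just above miR-21-5p were miR-148a-3p, miR-15b-5p and miR-4281, and the 3 just below were miR-5787, miR-4286 and miR-142-3p. All 6 were called, beside 43 of the 50 brightest (86%). miR-148a-3p, which is abundant in antibody-secreting cells, fell by 1.30 on the log2 scale (SE 0.22, adjusted p = 7.6e-04) and spanned ranks 10 to 29. miR-15b-5p, of the miR-15 and miR-16 family that represses BCL2, fell by 0.76 (adjusted p = 0.0013), and miR-142-3p, a miRNA of blood cells, fell by 0.52 (adjusted p = 0.0091). miR-4286 fell by 1.47 (adjusted p = 3.9e-04), while miR-4281 rose by 0.80 (adjusted p = 0.014) and miR-5787 by 0.75 (adjusted p = 0.0010). These are differences relative to the bulk of the miRNAs on an array. With spike-in scaling miR-142-3p and miR-15b-5p pointed upward, and miR-142-3p also did with no scaling and with scaling to the summed signal.

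**Figure D2:**
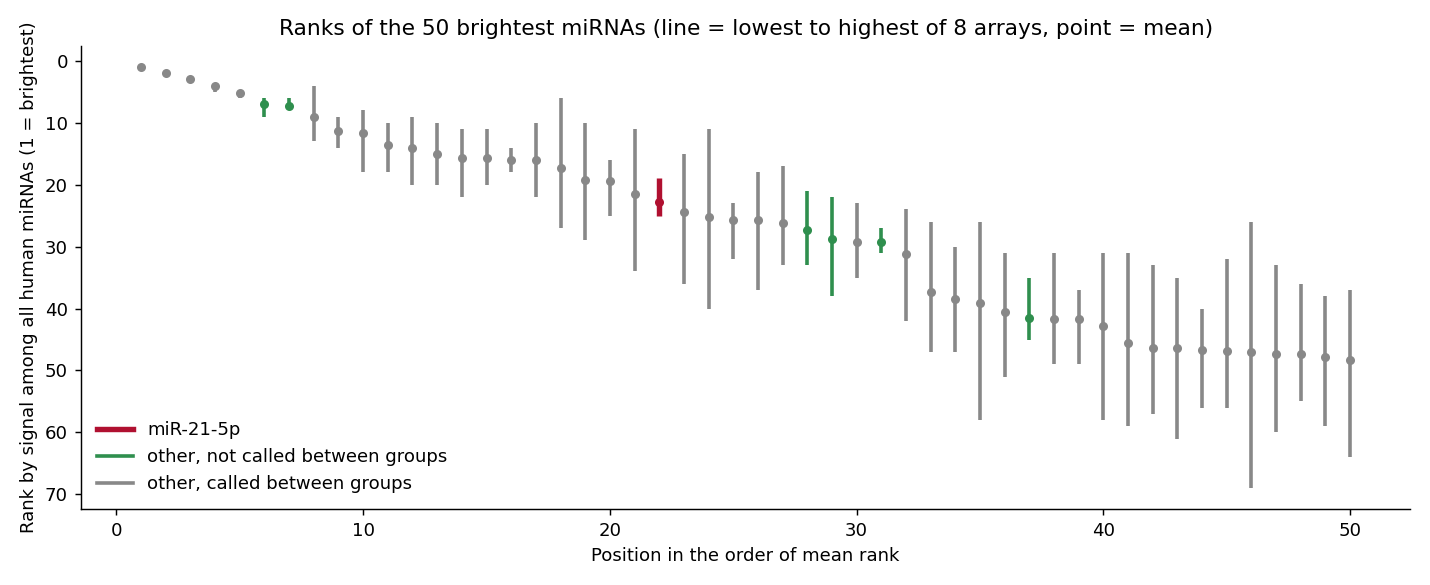
Rank by signal among all human miRNAs for the 50 brightest, ordered along the horizontal axis by mean rank. Each line runs from the lowest to the highest rank over the 8 arrays and the point is the mean: miR-21-5p in red stayed between ranks 19 and 25, green lines are the other miRNAs not called between the groups, and grey lines are those called.

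The passenger strand miR-21-3p was dim and was detected on 8 of 8 arrays. Its log2 scaled signal was 5.84, 5.91, 5.57 and 5.93 on the DMSO arrays. It was 5.94, 5.20, 5.71 and 5.20 on the UNC1999 arrays. UNC1999 replicates 2 and 4 lay below every DMSO array, replicate 1 lay above every DMSO array, and replicate 3 lay among them, so the groups overlapped. The means were 5.81 ± 0.17 (SD, n = 4) and 5.51 ± 0.37 (SD, n = 4), a log2 fold change of -0.30 with a standard error of 0.18 and a 95% interval from -0.69 to 0.09 (limma, adjusted p = 0.143; exact permutation test, two-sided, p = 0.257). Its ranks were 302, 281, 328 and 286 after DMSO and 276, 358, 294 and 356 after UNC1999 (exact permutation test, two-sided, p = 0.343).

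The 2 UNC1999 arrays low in miR-21-3p are 1 of the alike pairs. The alike pairs are the arrays of 1 group on the same side of the second principal component, which holds 15.0% of the variance. Each side holds 2 arrays of each group, so pairs and sides are 1 grouping. On the side of DMSO 1 and 4 and UNC1999 1 and 3, miR-21-3p differed by -0.06 (log2, UNC1999 minus DMSO), and on the side of DMSO 2 and 3 and UNC1999 2 and 4 by -0.54. With the side as a block the miRNA passed both thresholds (limma, log2 fold change -0.30, adjusted p = 0.045), but that block was taken from these data, and with alike arrays averaged it did not pass (limma, adjusted p = 0.315). miR-21-5p differed by -0.12 on the first side and by 0.10 on the second. The slide held the arrays in 2 rows, with 3 DMSO and 1 UNC1999 in the first and 1 DMSO and 3 UNC1999 in the second, and the differences within rows were -0.10 and 0.25 for miR-21-5p and -0.69 and 0.04 for miR-21-3p. With the row as a block the log2 fold change was 0.07 for miR-21-5p (limma, adjusted p = 0.689) and -0.33 for miR-21-3p (limma, adjusted p = 0.200).

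The ratio of the 2 arms is taken within an array and is free of any factor that multiplies an array. Its size depends on how bright each probe is and is no count of strands, but it can be compared between groups. The log2 ratio of miR-21-5p over miR-21-3p was 6.14, 5.71, 5.94 and 6.03 on the DMSO arrays. It was 6.01, 6.40, 6.03 and 6.55 on the UNC1999 arrays. UNC1999 replicates 2 and 4, the arrays low in miR-21-3p, were above every DMSO array, and the other 2 lay within the DMSO range. On the linear scale the mean ratio was 62.4 ± 7.63 for DMSO and 77.0 ± 14.4 for UNC1999 (SD, n = 4 each). On the log2 scale the difference was 0.29 with a standard error of 0.15 and a 95% interval from -0.04 to 0.63 (limma, adjusted p = 0.113 over 17 hairpins; exact permutation test, two-sided, p = 0.171). It was -0.06 on the side of DMSO 1 and 4 and 0.65 on the other side, and 0.59 and 0.21 within the rows of the slide.

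Both arms were detected on all 8 arrays for 17 hairpins, and 9 of these (52.9%) were called for a changed ratio, 4 higher (23.5%) and 5 lower (29.4%). miR-21 was the 7th from the highest rise and the 12th by size. The largest rises of the called ratios were those of miR-6800 (1.09), miR-574 (0.99) and miR-652 (0.72), and the largest falls those of miR-4433a (-1.14), miR-150 (-0.83) and miR-9 (-0.69), all as log2 differences of 5p over 3p. The interval of miR-21 reached 0.63, so a rise of up to that size is not excluded.

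**Figure D3:**
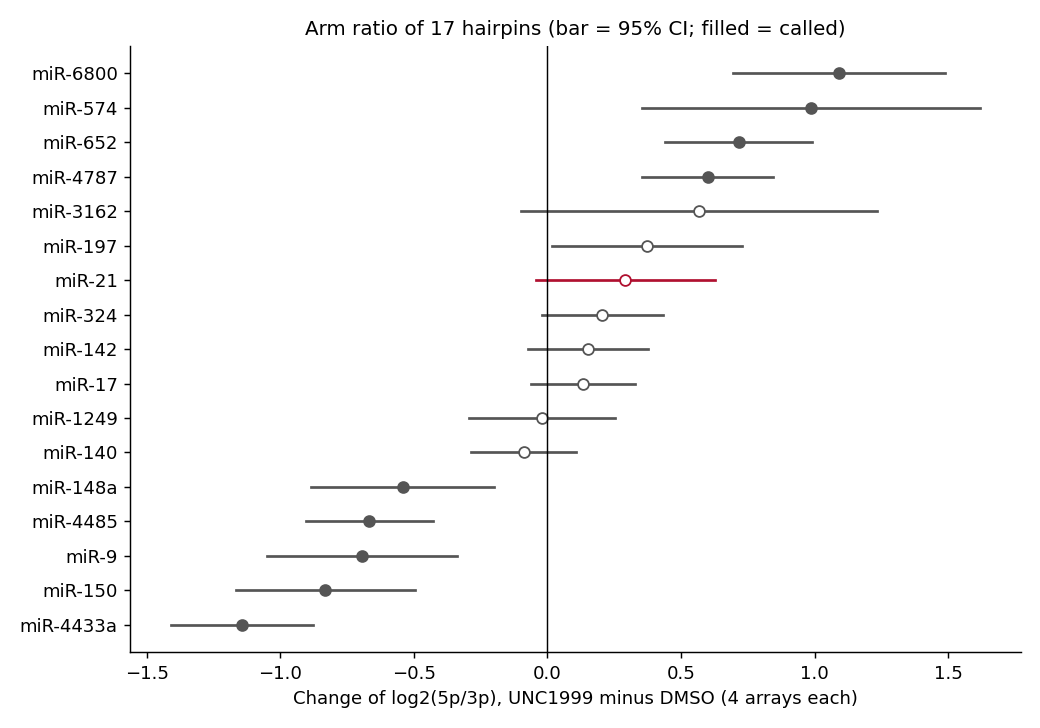
Change in the log2 ratio of the 5p arm to the 3p arm, UNC1999 minus DMSO, for the 17 hairpins with both arms detected on all 8 arrays. Points are differences of 4 against 4 arrays, bars are 95% confidence intervals and filled points are called; miR-21 in red, at 0.29, is open and its bar crosses 0.

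Each arm was read by 2 probes with 10 spots each, 80 spots of a probe over the 8 arrays. The brighter probe of miR-21-5p (A_25_P00010975) differed by 0.01 on the log2 scale and the dimmer (A_25_P00010976) by -0.07 (exact permutation test, two-sided, p = 1 and 0.629). Both were well above background on 80 of 80 spots, and the spots of a probe on an array had a median coefficient of variation of 3.43% and 2.43%. The probes of miR-21-3p were noisier. A_25_P00013173 was well above background on 27 of 80 spots, with 0 to 8 of 10 on an array and a median coefficient of variation of 24.7%, and A_25_P00013174 on 75 of 80, with 14%. Their log2 differences were -0.19 and -0.35 (exact permutation test, two-sided, p = 0.600 and 0.229), so both pointed the same way and neither passed. Over the 4 probes the adjusted p was between 0.838 and 1.

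Saturation did not limit miR-21. Of the 80 spots of each probe 0 were saturated, and the brightest, at 4252.5, stood at 0.546% of the scanner's saturation intensity of 778285. Over the 8 arrays 3 spots of human miRNAs were saturated, of miR-204-3p on DMSO 3 and of miR-4707-3p and miR-6873-5p on UNC1999 1. The scanner software marked 3 and 4 spots of the miR-21-5p probes and 3 and 1 of the miR-21-3p probes as outliers, and these were left out.

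miR-590-5p, the miRNA with the seed of miR-21-5p, fell. Its log2 scaled signal was 8.01, 7.76, 7.58 and 7.98 on the DMSO arrays. It was 7.32, 7.11, 7.08 and 7.13 on the UNC1999 arrays. All UNC1999 values were below all DMSO values, and the groups did not overlap, in either direction, for 65.4% of all tested. Its log2 fold change was -0.67 (SE 0.12, limma, adjusted p = 9.8e-04). Its mean rank went from 141 ± 8.52 to 185 ± 7.54 (SD, n = 4 each; exact permutation test, two-sided, p = 0.029). The log2 fold change was 0.02 without scaling and 0.13 with spike-in scaling, so its direction rests on the scaling. The rank of miR-590-5p and its ratio to miR-21-5p do not.

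The ratio of miR-21-5p to miR-590-5p is again taken within an array. Its log2 value was 3.97, 3.86, 3.93 and 3.99 on the DMSO arrays and 4.64, 4.49, 4.66 and 4.62 on the UNC1999 arrays. It rose by 0.66, from 3.94 ± 0.06 to 4.60 ± 0.08 (SD, n = 4 each; exact permutation test, two-sided, p = 0.029, adjusted p = 0.032 over 10 ratios). The rise lay between 0.62 and 0.90 under the 28 alternative settings, of which those that only multiply an array cannot change it. Every UNC1999 array was above every DMSO array, as for 21.5% of the ratios of miR-21-5p to another tested miRNA.

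miR-21-5p was set beside other miRNAs that the literature ties to IL-6 or STAT3, in a list of 13. Of these, 11 were tested, 8 were lower (72.7%, beside 70.6% called of all tested in either direction and 34.6% called lower), 0 were higher and 3 were not called, and the median log2 fold change was -0.88, beside 0.01 over all tested. All 11 were detected on all 8 arrays. The 346 miRNAs so detected are the closer background, with a median of -0.14 and 138 called lower. The list was chosen with earlier results of these data known, and most of its members that fell belong to a single cluster. Its counts and median thus describe these miRNAs and are no test of a link to IL-6 or STAT3. The 3 not called were both arms of miR-21 and miR-181b-5p, with -0.04 (SE 0.15, limma, adjusted p = 0.832). miR-181b, like miR-21, is known as a miRNA that STAT3 induces. miR-146b-5p was detected on 0 of 8 arrays and miR-155-5p on 2, both after UNC1999, so neither was tested.

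Of the 8 that fell, 6 belong to the miR-17-92 cluster, a single transcript of the host gene MIR17HG that MYC and STAT3 are known to induce. These were miR-17-5p (-0.92), miR-18a-5p (-0.96), miR-19a-3p (-0.96), miR-19b-3p (-0.98), miR-20a-5p (-0.88) and miR-92a-3p (-0.70), all as log2 fold changes and with groups that did not overlap, as for 65.4% of all tested. The remaining members that fell were miR-125b-5p (-0.999) and let-7a-5p (-0.48), a let-7 family miRNA that represses IL6 mRNA, whose groups overlapped. With no scaling and with spike-in scaling 0 members of the list were called lower, and with scaling to the summed signal 1 was, miR-18a-5p. Those called higher were miR-181b-5p in all 3 and miR-21-5p in the last 2. let-7a-5p pointed upward in these 3 settings, as did miR-92a-3p with spike-in scaling, so these falls are relative to the bulk of the miRNAs on an array.

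**Figure D4:**
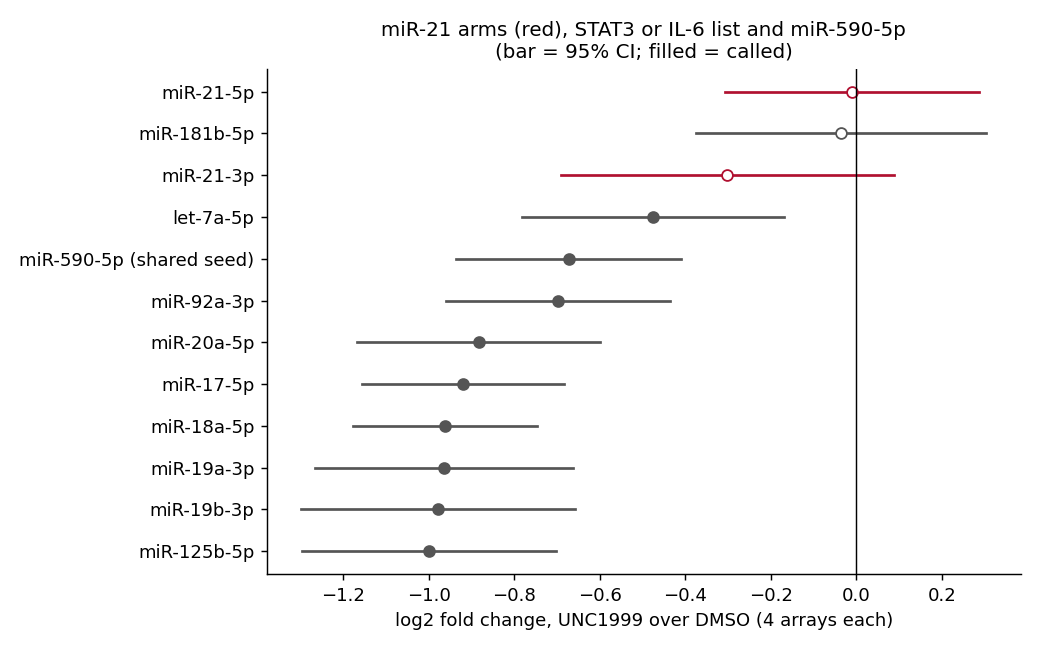
Log2 fold change, UNC1999 over DMSO, of the 11 tested miRNAs of the STAT3 or IL-6 list and of miR-590-5p, with 95% confidence intervals from 4 arrays a group. Filled points are called; the 2 arms of miR-21 in red and miR-181b-5p are open, and the 9 others lie at -0.48 or lower.

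Within each array, miR-21-5p gained on nearly all of them. Its own log2 fold change was -0.01 as scaled here, so each ratio mostly repeats the other miRNA's change with the sign turned. The ratios are therefore no separate evidence beside those changes. The log2 ratio of miR-21-5p to 9 of the 10 others compared, miR-590-5p included, was higher on every UNC1999 array than on any DMSO array, by 0.47 for let-7a-5p to 0.99 for miR-125b-5p (exact permutation test, two-sided, p = 0.029 and adjusted p = 0.032 for each). Over all 455 other tested miRNAs, the ratio of miR-21-5p to the miRNA did not overlap between the groups for 215 (47.3%), with 98 higher (21.5%) and 117 lower (25.7%) after UNC1999. The ratio to miR-17-5p went from -1.06 ± 0.16 to -0.15 ± 0.13 (SD, n = 4 each), and the ratio to miR-20a-5p from -1.34 ± 0.08 to -0.47 ± 0.12. The exception was miR-181b-5p, whose ratio differed by 0.03 (exact permutation test, two-sided, p = 0.886). The cluster members share a host transcript and are not independent of each other. Whether part of their signal comes from other genes was not tested.

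The bulk of miRNAs sets what a steady scaled signal means. Before scaling, the intensity of miR-21-5p was 3700, 2127, 1671 and 4298 on the DMSO arrays and 5252, 4227, 4815 and 3555 on the UNC1999 arrays. UNC1999 4 lay below DMSO 1 and 4, so the groups overlapped (exact permutation test, two-sided, p = 0.143). The 75th percentile that served for scaling was itself 419 ± 119 for DMSO and 664 ± 88.3 for UNC1999 (SD, n = 4 each; exact permutation test, two-sided, p = 0.057). As a share of the summed signal of human miRNAs, miR-21-5p was 0.444%, 0.334%, 0.292% and 0.451% on the DMSO arrays and 0.617%, 0.558%, 0.569% and 0.587% on the UNC1999 arrays. These shares did not overlap (exact permutation test, two-sided, p = 0.029). Most miRNAs tested moved likewise: with signals scaled to this sum, 294 were called higher and 20 lower. The log2 fold change of miR-21-5p was then 0.64, as was the median of all tested. The 2 brightest features, miR-7975 and miR-7977, made up 66.2% ± 3.84 of that sum for DMSO and 45.9% ± 4.07 for UNC1999 (SD, n = 4 each). Without them in the sum, a choice made after seeing the data, miR-21-5p was 1.12% ± 0.12 and 1.08% ± 0.12 of it (SD, n = 4 each; exact permutation test, two-sided, p = 0.743).

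A factor that multiplies an array shifts the log2 fold changes of miR-21-5p and of the median miRNA alike. Their distance under such scalings was thus nearly fixed in advance and is no separate result on miR-21-5p. With normexp background correction, which is no such factor, they lay at 0.18 and -0.29. The log2 fold change of miR-21-5p itself differed from scaling to scaling. It was 0.11 with quantile normalization, 0.21 with a 75th percentile taken among every human miRNA and 0.26 in the authors' processed values, and it passed both thresholds in none of them. It was 0.69 with no scaling (limma, adjusted p = 0.052), 0.80 with the labelling spike-ins (limma, adjusted p = 0.0069) and 0.64 with the summed signal (limma, adjusted p = 0.0018), and it was called with the last 2. The median of all tested moved to 0.67, 0.77 and 0.64 in these 3. Relative to the median of all tested, miR-21-5p stood at -0.02 as scaled here and at 0.01, 0.03 and -0.004 in those 3. miR-21-3p was 0.40, 0.51 and 0.35 there, called in none, and stood -0.28, -0.27 and -0.30 from the median. With these 3 scalings 234, 295 and 294 miRNAs were called higher and 4, 7 and 20 lower.

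**Figure D5:**
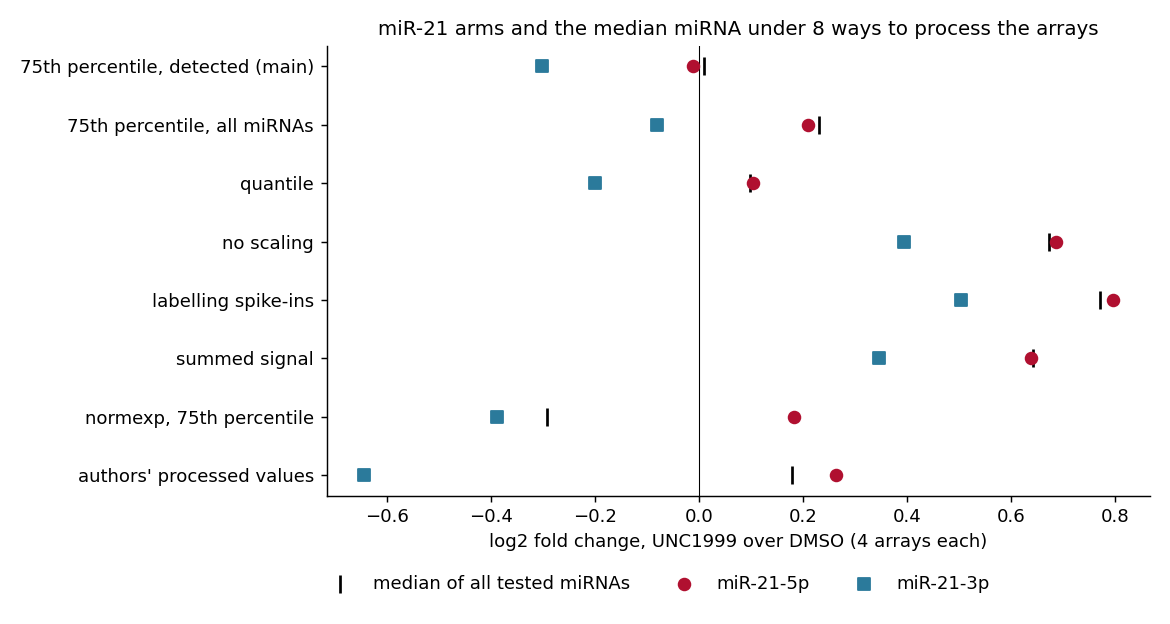
Log2 fold change, UNC1999 over DMSO, of miR-21-5p (red circles), miR-21-3p (blue squares) and the median of all tested miRNAs (black ticks) under 8 ways to process the 8 arrays. The red circle keeps close to the tick except with normexp background correction, where miR-21-5p is at 0.18 and the median at -0.29, and the blue square lies below the tick in each. Scalings that only multiply an array move circle, square and tick alike.

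Across the 8 arrays, few miRNAs followed either arm closely, and the arms did not follow each other closely. Of 345 other miRNAs detected on all arrays, those whose log2 scaled signal was most like that of miR-21-5p were miR-4656 (Pearson r = 0.91), miR-4478 (r = 0.87), miR-4538 (r = 0.87), miR-3162-5p (r = 0.86) and miR-6780b-5p (r = 0.84). None of these 5 was called, beside 100 not called of the 346 miRNAs detected on all arrays. For miR-21-3p they were miR-34a-5p (r = 0.86), a miRNA that p53 induces, miR-8069 (r = 0.83), miR-6165 (r = 0.82), miR-598-3p (r = 0.82) and miR-9-5p (r = 0.82), and 4 of these 5 were called lower, beside 138 of the 346 miRNAs detected on all arrays. The arms correlated at r = 0.54, with miR-21-3p the 46th in the order for miR-21-5p. Both sets of 5 were chosen by likeness to an arm over both groups. Whether they were called follows in part from that choice and is no separate result. These correlations are descriptions over 8 arrays that share a slide and a scaling. The part of the alike pairs of arrays in them was not tested.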

How the data were processed

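Total RNA of 8 INA-6 cultures was hybridized to single-colour miRNA arrays. The authors deposited, per the file headers, background-subtracted spot intensities from Agilent Feature Extraction 10.7.3.1, not normalized between arrays. They also deposited log2 values, whose scaling is not given in the sources used here; these served as an alternative. Spots of a probe were averaged without outliers (1392 to 2292 of 53144 spots an array). Probes were summed per miRNA, scaled to the 75th percentile and raised to at least 8.98, the scaled signal of the dimmest detected miRNA (median of 8 arrays), before log2. miRNAs detected on all 4 arrays of a group were fitted in limma 3.58.1 (R 4.3.3) with no block and Benjamini-Hochberg adjustment. Single values had exact permutation tests. Named miRNAs were those sharing the seed, the STAT3 or IL-6 list, the rank neighbours, the 5 most alike and the most changed arm ratios. The members and lists were chosen with earlier results of these data known. The steps were tested on simulated data. Precision is limited by the number of arrays, and the alternatives are given with their effects below. Replicates are called biological in the series' design. mRNA arrays were not analysed here.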

Additional observations from a re-analysis of the deposited data

Results flagged for a closer look

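Among 82 groups of 4 arrays, for the members, their probes and the named miRNAs and ratios, 2 held an array far from the other 3, where chance gives about 1 in 20. The probe A_25_P00013174 of miR-21-3p had a log2 scaled signal of 5.16 on DMSO 3, beside 5.346 to 5.350 on the other DMSO arrays. The log2 ratio of miR-21-5p to miR-20a-5p was -0.28 on UNC1999 4, beside -0.54 to -0.52 on the other UNC1999 arrays, and all 4 were above the DMSO arrays. The cause of either was not tested.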

How the results depend on the processing

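The arm ratio of miR-21 was positive under 29 alternatives (0.16 to 0.91) and called under 0. Alternatives that only multiply an array cannot change its value, so they are no check of it. miR-21-5p ran from -0.19, without the DMSO arrays with the fewest detected miRNAs (added after seeing the data), to 0.80, and was called under 2 of 28 alternatives. It turned positive with no scaling (0.69), spike-in scaling (0.80), summed signal scaling (0.64, added after seeing the data), normexp background correction (0.18), the brightest probe alone (0.12), the 75th percentile over all human miRNAs (0.21), quantile normalization (0.11), the authors' processed values (0.26) and the slide row as a block (0.072). With single arrays left out miR-21-5p gave -0.15 to 0.060 and miR-21-3p gave -0.45 to -0.20. miR-21-3p was called without UNC1999 replicate 1 (-0.45, limma, adjusted p = 0.034), with normexp (-0.39) and with the sides of the second principal component as a block (-0.30). With normexp, run with an offset of 50, the median of all tested was itself -0.29. There miR-21-3p stood -0.096 from that median, against -0.31 as scaled here. It turned positive with no scaling (0.40), spike-in scaling (0.51) and summed signal scaling (0.35). The calls split into 192 higher and 88 lower with a 75th percentile taken among every human miRNA, 54 and 230 with normexp, and 129 and 193 without the dim DMSO arrays, against 164 and 158. The number called was 195 with no filter on detection (71 higher, 124 lower) and 156 with alike arrays averaged (70 and 86), and fitting the miRNAs detected on all 8 arrays alone gave 109 higher and 139 lower. The rank of miR-21-5p differed by -6.75 places with outlier spots kept, against -1.50. Of the STAT3 or IL-6 list, 1, 2 and 3 members were called with no scaling, spike-in scaling and summed signal scaling, of which 0, 0 and 1 were lower, against 8 called, all lower. In these 3, let-7a-5p was 0.22, 0.33 and 0.17 and miR-181b-5p 0.66, 0.77 and 0.61, with miR-142-3p at 0.18, 0.29 and 0.13; in the first 2 miR-590-5p was 0.024 and 0.13, and in the second miR-92a-3p was 0.11 and miR-15b-5p 0.047. miR-181b-5p also turned positive with the brightest probe alone (0.080), the 75th percentile over all human miRNAs (0.18), the slide row as a block (0.022) and without the dim DMSO arrays (0.061), and ran from -0.15 to 0.074 with single arrays left out. The share of miR-21-5p in the summed signal differed by 0.20 percentage points, and by -0.032 without the 2 brightest miRNAs in the sum. Apart from the settings whose construction changes the scale, the number of miRNAs or the number of arrays, the cause was not tested. Replicate numbers did not pair the arrays (correlations of deviations -0.42 to 0.27, 1 of 4 best with its own number); with the replicate block miR-21-5p was -0.01 (limma, adjusted p = 0.941), miR-21-3p -0.30 (limma, adjusted p = 0.160) and the arm ratio 0.29 (limma, adjusted p = 0.157).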
